A study of Homo sapiens with 22 samples.

Results

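TERT encodes telomerase reverse transcriptase, the catalytic subunit of the enzyme that adds telomeric repeats to chromosome ends, and it was 1 of the 17165 genes in the deposited table, identified there by its Ensembl identifier ENSG00000164362. It was chosen by its level across the 22 libraries and its changes under inhibitor, so those values are given as a description with no test. The libraries came from PC9, an established cell line of human lung adenocarcinoma driven by mutant EGFR, and from its derivatives. They form 11 groups of 2: WZ4002 and vehicle in PC9-GR2 cells, WZ4002 and vehicle in PC9-GR3 cells, gefitinib and vehicle in gefitinib-tolerant cells, WZ4002 and vehicle in WZ4002-tolerant cells, and gefitinib, WZ4002 and vehicle in parental cells. GR2 and GR3, as the first of these derivatives are called here, stand in a series whose title concerns paths to resistance to EGFR inhibition, and the sources used here do not say whether each is 1 clone. Gefitinib is a reversible and WZ4002 a covalent EGFR inhibitor. Cells were treated for 24 h, and the labels give 1 mM for either inhibitor, far above the usual range for such compounds, so the unit may be an error.

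Telomerase consists of TERT, the template RNA TERC and a set of proteins that assemble, stabilise and deliver the RNA. Most somatic cells keep TERT silent while TERC and the assembly proteins are widely made, so the level of TERT is regarded as the limiting step, and most carcinomas express it. Its promoter lies in a GC-rich stretch and is known to be bound by MYC at E-boxes, by SP1 at GC boxes and, in tumours that carry certain promoter mutations, by ETS factors such as GABP. MYC and several ETS factors act downstream of EGFR through the ERK kinase cascade. At the telomere, shelterin proteins recruit and restrain the enzyme.

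The promoter of TERT is shown because the MYC and ETS genes described further on encode factors that recognise letters within it, and that of DKC1, the assembly gene described with it, is set beside it. Both are RefSeq sequences of build GRCh38.p14, from 250 bases before to 50 bases after the start of the gene, read 5′ to 3′ on the strand of the gene: chr5:1295019-1295318, minus strand, for TERT, and chrX:154762614-154762913, plus strand, for DKC1. Capitals mark E-boxes (CACGTG), GC boxes (GGGCGG, or CCGCCC on the other strand) and ETS cores (GGAA, or TTCC on the other strand). In TERT the ETS core at position -167 lies against the E-box, and in DKC1 a GC box overlaps an ETS core and another pair of GC boxes overlap each other.
TERT: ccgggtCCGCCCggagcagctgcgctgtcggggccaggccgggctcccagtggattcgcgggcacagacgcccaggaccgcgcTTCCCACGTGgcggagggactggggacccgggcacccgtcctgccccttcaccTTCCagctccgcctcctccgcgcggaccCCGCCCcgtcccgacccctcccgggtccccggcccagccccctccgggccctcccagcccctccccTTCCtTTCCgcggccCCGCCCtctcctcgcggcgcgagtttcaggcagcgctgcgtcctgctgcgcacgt
DKC1: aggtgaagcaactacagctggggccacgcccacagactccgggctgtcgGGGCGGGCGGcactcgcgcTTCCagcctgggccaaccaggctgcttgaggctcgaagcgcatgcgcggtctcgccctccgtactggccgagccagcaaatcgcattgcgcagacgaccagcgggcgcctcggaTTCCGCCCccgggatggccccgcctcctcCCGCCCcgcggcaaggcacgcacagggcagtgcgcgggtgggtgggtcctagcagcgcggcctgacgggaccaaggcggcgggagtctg
The TERT window was 77.3% G or C, against a median of 58.7% over 35116 promoters, and it held 1 E-box at position -163, 3 GC boxes and 4 ETS cores, counted from -1 for the base before the start. Its closing letters, cacgt, match an E-box but for the final letter, which would lie beyond the window and was not searched. An E-box was present in 7.26% of the 35116 promoters, a GC box in 45.0% and an ETS core in 95.5%. The longer ETS motif CCGGAA, present in 17.2%, had no match in the TERT window. The DKC1 window held 4 GC boxes, 2 ETS cores and no E-box. These are matches of letters only, and the genotype of the TERT promoter in these cells is not given in the sources used here.

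TERT was highest in vehicle-treated GR2 cells and was at or below 0.35 CPM in every inhibitor library outside the gefitinib-tolerant cells. Expression is given as CPM, in which each gene's read number is divided by its library's total and rescaled; the reads behind each value were recovered from the spacing of the CPM values. GR2 cells had 0.07 and 0.08 CPM under WZ4002, from 2 and 3 reads, against 58.88 and 58.10 CPM in vehicle, from 2919 and 2025 reads. Parental cells had 0.04 and 0.16 CPM under gefitinib, from 1 and 6 reads, and 0.03 and 0.06 CPM under WZ4002, from 1 and 3 reads, against 7.40 and 7.28 CPM in vehicle, from 267 reads in each library. The vehicle pairs of GR2 and of parental cells thus lay close together, and each inhibitor library lay far below them.

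GR3 cells had 0.02 and 0.03 CPM under WZ4002, from 1 read in each library, against 0.49 and 0.56 CPM in vehicle, from 21 and 22 reads. Their vehicle level was already low, so the depth leaves little room to measure a fall. Gefitinib-tolerant cells kept 0.90 and 0.81 CPM under gefitinib, from 29 and 32 reads, against 2.41 and 5.42 CPM in vehicle, from 81 and 205 reads. WZ4002-tolerant cells had 0.03 and 0.35 CPM under WZ4002, from 1 and 16 reads, against 1.27 and 3.44 CPM in vehicle, from 46 and 107 reads. The pairs of both tolerant populations differed within a group by up to 11.7 times, in WZ4002-tolerant cells under WZ4002, but no inhibitor library reached the level of any vehicle library of its own population. In bulk samples, fewer cells that express a gene and less RNA of it per cell cannot be told apart.

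**Figure D1:**
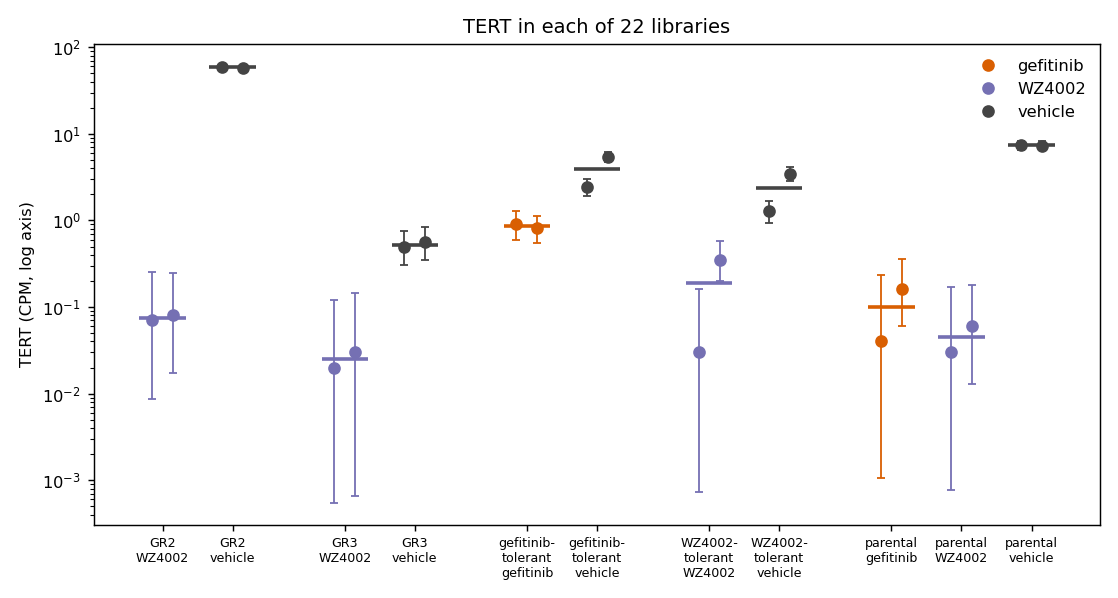
TERT in each library in CPM on a log axis, with inhibitor left of vehicle within each population; points are libraries, vertical bars their 95% exact Poisson intervals and horizontal lines the mean of 2 libraries. GR2 vehicle libraries stand near 58 CPM and parental vehicle libraries near 7.34 CPM, and in every population the inhibitor libraries lie below the vehicle libraries.

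Ordered by the mean of 2 libraries (± SD), vehicle-treated GR2 cells came first at 58.49 ± 0.552 CPM, followed by vehicle-treated parental cells at 7.34 ± 0.0849 CPM. Vehicle-treated gefitinib-tolerant cells at 3.915 ± 2.13 CPM and WZ4002-tolerant cells at 2.355 ± 1.53 CPM came next, and the libraries of these neighbours overlapped. Gefitinib-tolerant cells under gefitinib at 0.855 ± 0.0636 CPM stood above vehicle-treated GR3 cells at 0.525 ± 0.0495 CPM, without overlap. The 5 remaining groups were all treated with an inhibitor. They ran from WZ4002-tolerant cells under WZ4002 at 0.19 ± 0.226 CPM, through parental cells under gefitinib at 0.1 ± 0.0849 CPM, GR2 cells under WZ4002 at 0.075 ± 0.00707 CPM and parental cells under WZ4002 at 0.045 ± 0.0212 CPM, to GR3 cells under WZ4002 at 0.025 ± 0.00707 CPM. Among these 5 the neighbours overlapped, except GR2 cells and parental cells under WZ4002, whose nearest libraries had 0.07 CPM and 0.06 CPM, a gap smaller than the CPM of 1 read.

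Expressed as a ratio of reads pooled over 2 libraries and scaled to their depth, TERT was 749-fold lower under WZ4002 than in vehicle in GR2 cells, with a 95% counting interval of 321 to 2307. In parental cells it was 148-fold lower under WZ4002 (57.6 to 547) and 63.3-fold lower under gefitinib (30.5 to 158), and the intervals of the inhibitors overlap. It was 22.2-fold lower in GR3 cells (5.79 to 189), 10.7-fold lower in WZ4002-tolerant cells (6.48 to 18.9) and 4.72-fold lower in gefitinib-tolerant cells (3.57 to 6.33). The intervals cover counting error only and not the spread between libraries. They also make no allowance for the deposited table listing only genes with reads in every library. In WZ4002-tolerant cells the ratio rests on single libraries: it was 79.1-fold lower without WZ4002 replicate 2, 6.45-fold without WZ4002 replicate 1, 16.2-fold without vehicle replicate 1 and 6.0-fold without vehicle replicate 2. It was 173-fold lower in parental cells under gefitinib without gefitinib replicate 2, 240-fold under WZ4002 without WZ4002 replicate 2, and 2.84-fold lower in gefitinib-tolerant cells without vehicle replicate 2. Differences of log2(CPM + 1), the scale used for all other genes, were -5.79 in GR2, -2.92 under gefitinib and -3.00 under WZ4002 in parental, -0.57 in GR3, -1.43 in WZ4002-tolerant and -1.34 in gefitinib-tolerant cells, and they understate the change where TERT is below 1 CPM. The last 2 moved to -0.94 and -0.88 without vehicle replicate 2 of their population.

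In vehicle, the libraries of each derivative lay apart from the parental libraries. TERT was 7.98-fold higher in GR2 than in parental cells (7.29 to 8.74), 14.0-fold lower in GR3 than in parental cells (10.3 to 19.6), 3.23-fold lower in WZ4002-tolerant cells (2.69 to 3.89) and 1.83-fold lower in gefitinib-tolerant cells (1.59 to 2.12). These 4 ratios share the parental vehicle libraries, which also serve both parental inhibitor ratios. Without vehicle replicate 2 of the tolerant population TERT was 3.04-fold lower in gefitinib-tolerant and 5.77-fold lower in WZ4002-tolerant than in parental cells, and 2.13-fold lower in WZ4002-tolerant cells without their vehicle replicate 1.

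**Figure D2:**
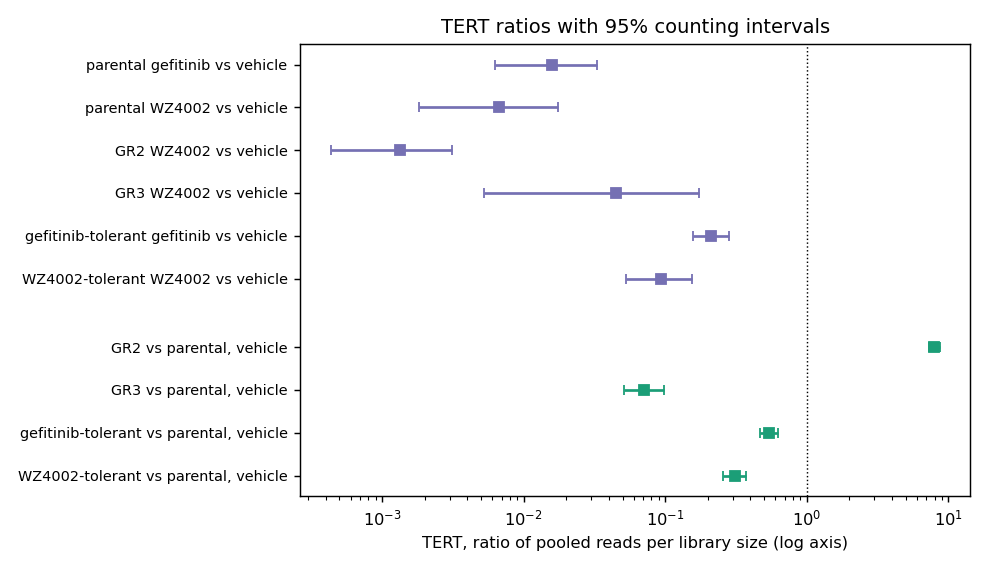
Ratio of TERT reads per library size, pooled over 2 libraries, on a log axis: inhibitor over vehicle in the upper 6 rows and derivative over parental cells, both in vehicle, in the lower 4. Bars are 95% counting intervals; GR2 against parental cells in vehicle is the 1 ratio above 1.

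The libraries held 23.6 to 49.6 M reads, so that 1 read was worth 0.0202 to 0.0423 CPM. The libraries of each pair differed by more than sampling noise (a chi-square per gene between 19.8 and 87.5, or 3.483 in the GR2 vehicle pair) and were counted as 2 samples, and as the labels name no separate cultures, the p-values that follow measure a spread that may be technical. Epithelial markers were all in the table, with a sum of 2964 to 8221 CPM per library, and 7 of 13 markers of leukocytes, endothelium and fibroblasts were, with a sum of 14.0 to 55.9 CPM. Keratins and EGFR gave most of the epithelial sum. The highest group mean was 1.39 CPM for NKX2-1 and 1.305 CPM for NAPSA. SFTPB averaged 11.88 CPM in parental and 0.11 CPM in gefitinib-tolerant cells in vehicle. Of the other markers, endothelial CDH5 reached 37.2 CPM in WZ4002-tolerant cells under WZ4002.

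Genes for the other parts of telomerase fell in part under inhibitor. Tests used limma on log2(CPM + 1) with Benjamini-Hochberg adjustment over 15485 genes and a threshold of 0.05. Of the 12 listed genes for telomerase RNA and assembly 11 were tested, and TERC, whose RNA is not polyadenylated in its mature form, was not analysed here. Under gefitinib in parental cells 8 of the 11 fell, with 21.8% of all genes tested falling. Under WZ4002 8 fell in parental cells (22.3% of all genes), 6 in GR2 cells (28.3%), 3 in GR3 cells (9.87%) and 6 in WZ4002-tolerant cells (15.6%). In gefitinib-tolerant cells 6 fell under gefitinib (13.6%) and 1 rose (15.2%). The shares of all genes that rose in the other comparisons were 23.5% and 25.1% in parental cells under gefitinib and WZ4002, 27.4% in GR2, 12.1% in GR3 and 17.0% in WZ4002-tolerant cells. The median difference over the 11 genes was -0.54 and -0.67 in parental cells under gefitinib and WZ4002, -0.40 in GR2, -0.37 in GR3, -0.42 in gefitinib-tolerant and -0.58 in WZ4002-tolerant cells, where the medians of all genes tested lay between 0.01 and 0.04. Leaving out 1 library lowered the count to 5 in parental cells under gefitinib (without vehicle replicate 1, gefitinib replicate 1 or gefitinib replicate 2), to 1 in GR3 cells (without WZ4002 replicate 1), and to 3 in gefitinib-tolerant cells (without vehicle replicate 1 or gefitinib replicate 2) and in WZ4002-tolerant cells (without vehicle replicate 1).

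DKC1 encodes dyskerin, which binds and stabilises the telomerase RNA. It had 67.9 and 69.2 CPM under WZ4002 against 182 and 177 CPM in vehicle in GR2 cells (log2 difference -1.37 ± 0.22 SE, adjusted p = 9.4e-05). In parental cells it had 44.2 and 43.4 CPM under gefitinib and 44.0 and 41.8 CPM under WZ4002, against 122 and 122 CPM in vehicle (-1.46 and -1.49). Every inhibitor library of DKC1 lay below every vehicle library of its population. The log2 difference was -1.24 in gefitinib-tolerant cells, -1.16 in WZ4002-tolerant cells and -0.95 in GR3 cells, where the call was lost without WZ4002 replicate 1 (adjusted p = 0.0719). In vehicle DKC1 was not called in any derivative against parental cells. Its difference was 0.55 in GR2 (95% interval 0.08 to 1.02, adjusted p = 0.102) and 0.56 in GR3 cells (0.09 to 1.03, adjusted p = 0.0878), in which TERT lay on opposite sides of the parental level.

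RUVBL1 and RUVBL2 encode the paired ATPases that act in telomerase assembly. RUVBL1 fell in all 6 inhibitor comparisons, with log2 differences of -1.34 and -1.36 in parental cells under gefitinib and WZ4002, -1.31 in GR2, -0.56 in GR3, -0.92 in gefitinib-tolerant and -0.79 in WZ4002-tolerant cells. In GR3 cells its call was lost without vehicle replicate 1 (adjusted p = 0.137) and without WZ4002 replicate 1. RUVBL2 fell by 0.93 in both GR2 cells under WZ4002 and parental cells under gefitinib. It was also called lower in parental cells under WZ4002 (-1.06), in gefitinib-tolerant (-0.58) and in WZ4002-tolerant cells (-0.65). In GR3 cells RUVBL2 was not called (-0.38, adjusted p = 0.127). WRAP53, whose product delivers telomerase to Cajal bodies, had differences of -0.71 in GR2 cells under WZ4002 and of -0.86 and -0.83 in parental cells under gefitinib and WZ4002. Its calls were lost without parental vehicle replicate 1 (adjusted p = 0.052 under gefitinib and 0.0581 under WZ4002) and, in GR2, without vehicle replicate 2 or WZ4002 replicate 2 (adjusted p up to 0.12). The gene that rose was TEP1, a telomerase-associated protein, in gefitinib-tolerant cells (0.66), and that call was lost without vehicle replicate 1 (adjusted p = 0.239) or gefitinib replicate 2. Between vehicle-treated populations limma called 0 of the 11 genes in any of the 4 derivatives against parental cells, where 16.7% of all genes tested were called in GR2, 20.8% in GR3, 19.0% in gefitinib-tolerant and 18.4% in WZ4002-tolerant cells. At an unadjusted p under 0.05 there were 2 in GR2 (DKC1 and PARN, both higher), 1 in GR3 and 1 in gefitinib-tolerant cells (DKC1, higher), and 3 in WZ4002-tolerant cells (DKC1 and GAR1 higher, TEP1 lower), and limma-voom on the recovered reads called 0 in each of the 4. In the same vehicle-treated populations the mean of TERT ran from 0.525 to 58.49 CPM.

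**Figure D3:**
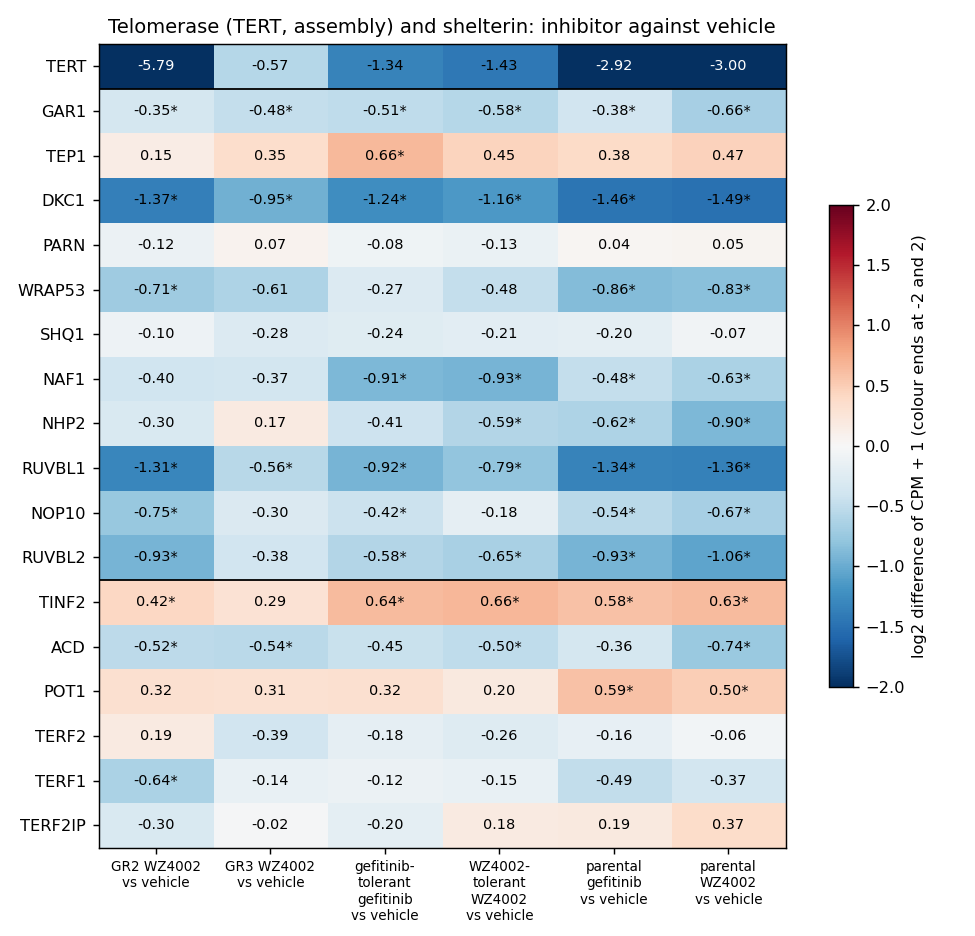
Log2 differences of CPM + 1, inhibitor against vehicle, for TERT (top row, not tested), 11 genes of telomerase assembly and 6 shelterin genes in 6 comparisons; blue is lower and red higher under inhibitor, the colour ends at -2 and 2, and asterisks mark adjusted p under the threshold. DKC1 and RUVBL1 are blue with an asterisk in every column, and TERT reaches -5.79 in GR2 cells.

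Shelterin genes moved in both directions. TINF2, which encodes the hub of the complex, rose in 5 of the 6 inhibitor comparisons: by 0.63 under WZ4002 and 0.58 under gefitinib in parental cells, 0.42 in GR2, 0.64 in gefitinib-tolerant and 0.66 in WZ4002-tolerant cells. Leaving out 1 library ended each of these calls except the one under WZ4002 in parental cells (adjusted p of 0.0762 without parental gefitinib replicate 2, 0.192 without GR2 WZ4002 replicate 2, 0.132 without gefitinib-tolerant gefitinib replicate 2 and 0.109 without WZ4002-tolerant vehicle replicate 1). ACD, which encodes TPP1, the shelterin protein that recruits telomerase, fell by 0.74 in parental cells under WZ4002, and the call was lost without WZ4002 replicate 1. Under WZ4002 ACD was also called lower in GR2 (-0.52, adjusted p = 0.026), GR3 (-0.54, adjusted p = 0.046) and WZ4002-tolerant cells (-0.50, adjusted p = 0.048). Under gefitinib it was not called in parental (-0.36) or gefitinib-tolerant cells (-0.445). TERF1 was called lower in GR2 cells only (-0.64, adjusted p = 0.012). The dependence of these further calls on single libraries is not given. POT1, the single-strand binding partner of TPP1, rose by 0.59 and 0.50 in parental cells under gefitinib and WZ4002, and both calls were lost without parental vehicle replicate 2. In vehicle 4 of 6 shelterin genes were called higher in GR3 than in parental cells (9.77% of all genes tested), a count that was between 0 and 2 when 1 library was left out: 0 without parental vehicle replicate 1, 2 without parental vehicle replicate 2 or GR3 vehicle replicate 1, and 1 without GR3 vehicle replicate 2.

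Of 9 tested genes of telomere replication and end processing, 4 fell in each parental comparison (21.8% and 22.3% of all genes under gefitinib and WZ4002), 6 fell and 2 rose in GR2 cells (28.3% and 27.4%), and 3 fell in GR3 (9.87%), gefitinib-tolerant (13.6%) and WZ4002-tolerant cells (15.6%). The count that rose in GR2 was 0 or 1 without any 1 of its libraries. The counts that fell were 0 in GR3 without WZ4002 replicate 2 and 1 without vehicle replicate 1, 0 or 1 in gefitinib-tolerant cells without any 1 library, and 0 in WZ4002-tolerant cells without vehicle replicate 1 and 1 without WZ4002 replicate 1. BLM, a helicase used at telomeric repeats, had 4.90 and 1.37 CPM under WZ4002 against 27.2 and 30.9 CPM in vehicle in GR2 cells (log2 difference -3.00 ± 0.50 SE, adjusted p = 0.00013). FEN1, a flap nuclease of lagging-strand synthesis, had 15.9 and 9.99 CPM against 75.2 and 67.4 CPM in the same comparison (-2.41 ± 0.40 SE, adjusted p = 0.00011). Without parental vehicle replicate 1 the parental counts were 2. PINX1, an inhibitor that binds TERT, also fell, to 2.16 and 1.45 CPM under WZ4002 against 5.43 and 5.45 CPM in vehicle in GR2 cells (-1.21 ± 0.22 SE, adjusted p = 0.00023). The median difference of the 20 proliferation genes, all tested, was -2.48 and -1.94 in parental cells under gefitinib and WZ4002 and -2.23 in GR2. It was -1.07 in GR3, -0.84 in gefitinib-tolerant and -1.07 in WZ4002-tolerant cells. Of these 20 genes, 19 fell in each parental comparison (21.8% and 22.3% of all genes) and in GR2 cells (28.3%), 2 in GR3 (9.87%), 5 in gefitinib-tolerant (13.6%) and 8 in WZ4002-tolerant cells (15.6%). Without 1 library this count was as low as 10 under WZ4002 in parental cells (without parental vehicle replicate 1 or WZ4002 replicate 1), 12 in GR2 (without WZ4002 replicate 2), 1 in GR3 (without vehicle replicate 1), 0 in gefitinib-tolerant (without vehicle replicate 1 or gefitinib replicate 2) and 1 in WZ4002-tolerant cells (without vehicle replicate 1). In GR3 cells it was as high as 12 (without vehicle replicate 2). The part of these genes in the level of TERT was not tested. Of 10 genes for access to the telomere and RNA partners of telomerase, 4 fell in GR2 cells, and of 13 tested genes for other factors of the TERT promoter 5 fell and 2 rose there (28.3% of all genes fell and 27.4% rose), with 3 falling without GR2 WZ4002 replicate 1 or 2.

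MYC encodes the factor that binds E-boxes. Of 9 tested genes of its network, 4 rose and 2 fell in GR2 cells under WZ4002, where 27.4% of all genes rose and 28.3% fell, and MYC was among those that fell. MYC had 52.4 and 58.1 CPM under WZ4002 against 203 and 204 CPM in vehicle in GR2 cells (log2 difference -1.86 ± 0.29 SE, adjusted p = 5.8e-05). Parental cells had 46.0 and 39.6 CPM under gefitinib and 36.9 and 39.2 CPM under WZ4002, against 157 and 156 CPM in vehicle (-1.85 and -2.02). MYC also fell in WZ4002-tolerant (-1.40) and in gefitinib-tolerant cells (-1.49), the last without a call when gefitinib replicate 2 was left out (adjusted p = 0.0528). GR3 cells had 81.3 and 134 CPM under WZ4002 and 115 and 181 CPM in vehicle, which overlap (-0.46, 95% interval -1.06 to 0.15, adjusted p = 0.265). In vehicle, where TERT was 7.98-fold higher in GR2 than in parental cells, the difference of MYC was 0.37 (-0.23 to 0.98, adjusted p = 0.407). MYCL, a relative of MYC, went the other way and was called higher in all 6 inhibitor comparisons, from 0.59 in gefitinib-tolerant cells to 3.39 in GR2 cells, where it had 18.3 and 19.0 CPM under WZ4002 against 0.67 and 1.12 CPM in vehicle. Its calls in the tolerant populations were lost without vehicle replicate 1 (adjusted p = 0.392 with gefitinib and 0.129 with WZ4002). MXD4, a repressor that competes at E-boxes, was called higher in the same 6 comparisons, by 1.37 to 1.96. Its calls were lost without vehicle replicate 1 in GR3 and gefitinib-tolerant cells. MXD1, a related repressor, went the other way in GR2 cells under WZ4002 (-1.18, adjusted p = 0.0035) and was not called in the other inhibitor comparisons. In vehicle MXD1 was called higher in GR2 (1.27, adjusted p = 0.0092) and lower in GR3 (-1.215, adjusted p = 0.0089) than in parental cells. The dependence of its calls on single libraries is not given.

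Of 12 genes induced by ERK signalling, all tested, 12 fell in each parental comparison. The share of all genes tested that fell there was 21.8% under gefitinib and 22.3% under WZ4002. In GR2 cells 11 fell (28.3% of all genes), in GR3 cells 11 (9.87%), in gefitinib-tolerant cells 11 (13.6%) and in WZ4002-tolerant cells 7 (15.6%). Leaving out 1 library lowered the count in gefitinib-tolerant cells to 6 (without vehicle replicate 1) and 5 (without gefitinib replicate 2), and in WZ4002-tolerant cells to 4 (without vehicle replicate 1 or WZ4002 replicate 1). Of 19 ETS genes, all tested, 8 fell and 6 rose in GR2 cells, where 28.3% of all genes fell and 27.4% rose. ETV5, an ETS gene that ERK signalling induces, had 0.75 and 1.57 CPM under WZ4002 against 116 and 107 CPM in vehicle in GR2 cells (log2 difference -5.73 ± 0.38 SE, adjusted p = 2.0e-08), and the difference was -5.90 and -5.94 in parental cells under gefitinib and WZ4002, -5.79 in GR3, -3.14 in gefitinib-tolerant and -2.38 in WZ4002-tolerant cells. Every inhibitor library of ETV5 lay below every vehicle library of its population. ETV1 fell by 4.35 in GR2 cells under WZ4002 and was higher in GR2 than in parental cells in vehicle, at 20.7 and 19.5 CPM against 7.15 and 7.58 CPM (1.33, adjusted p = 0.0071, but 0.0671 without GR2 vehicle replicate 1). ELF3, an epithelial ETS factor, was called higher in all 6 inhibitor comparisons, by 1.35 to 3.22, with calls lost without GR3 vehicle replicate 1 (adjusted p = 0.0806) and WZ4002-tolerant WZ4002 replicate 1 (adjusted p = 0.0529). ETS1 had 69.5 and 61.5 CPM in GR2, 72.4 and 70.4 CPM in GR3, 98.6 and 52.3 CPM in gefitinib-tolerant and 57.7 and 69.9 CPM in WZ4002-tolerant cells, against 19.2 and 15.8 CPM in parental cells, all in vehicle (differences 1.85, 1.97, 1.99 and 1.81). Of the GABP complex, GABPB1, its beta subunit, fell in parental cells under gefitinib (-0.98) and WZ4002 (-0.91), in GR2 (-0.76) and in gefitinib-tolerant cells (-0.70), the last call lost without vehicle replicate 1 or gefitinib replicate 2 (adjusted p = 0.138). GABPA, the DNA-binding subunit, had 13.7 and 14.3 CPM under gefitinib and 15.9 and 16.8 CPM under WZ4002, against 12.1 and 13.3 CPM in vehicle in parental cells (0.13, adjusted p = 0.453, and 0.34, adjusted p = 0.0476). The call under WZ4002 was lost without any 1 of the 4 libraries (adjusted p up to 0.225). In vehicle, of the 12 genes induced by ERK signalling, 2 were called higher and 0 lower in GR2 than in parental cells. The counts were 2 and 1 in GR3 and 1 and 1 in each tolerant population. Of all genes tested, 16.7% were called in either direction in GR2, 20.8% in GR3, 19.0% in gefitinib-tolerant and 18.4% in WZ4002-tolerant cells. The median difference of the 12 was 0.48, -0.08, -0.22 and -0.30 in the same order. Among them DUSP6, an ERK phosphatase that ERK itself induces, averaged 271 CPM in GR2, 46.0 CPM in GR3, 27.4 CPM in gefitinib-tolerant and 27.0 CPM in WZ4002-tolerant cells, against 107 CPM in parental cells, all in vehicle. Its call against parental cells was lost in GR2 without GR2 vehicle replicate 1 (adjusted p = 0.174) and in GR3 without GR3 vehicle replicate 1 (adjusted p = 0.227), among others.

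The genes beside TERT on chromosome band 5p15.33 moved in both directions under inhibitor. Of 21 listed neighbours 16 were tested, and 4 rose and 6 fell in GR2 cells under WZ4002, where 27.4% of all genes rose and 28.3% fell. In vehicle, 2 were called higher and 1 lower in GR2 than in parental cells, against 1390 and 1201 of all 15485 genes. In GR3 cells 0 were called higher and 5 lower (1513 and 1715 of all genes), with a median difference of -0.26. The dependence of these vehicle counts on single libraries is not given. CLPTM1L, the next gene in order, had 139 and 157 CPM under WZ4002 against 319 and 305 CPM in vehicle in GR2 cells (log2 difference -1.07 ± 0.17 SE, adjusted p = 6.7e-05). In vehicle it was called higher in GR2 than in parental cells, at 319 and 305 CPM against 218 and 194 CPM (0.60), and lower in GR3, at 144 and 144 CPM (-0.51), but leaving out any 1 of the 4 libraries ended either call (adjusted p up to 0.151 in GR2, without parental vehicle replicate 2, and up to 0.217 in GR3, without parental vehicle replicate 1). TRIP13, an ATPase of mitotic checkpoint control, was called lower in all 6 inhibitor comparisons, with differences of -3.32 in GR2 cells and of -3.44 and -3.02 in parental cells under gefitinib and WZ4002. In GR3, gefitinib-tolerant and WZ4002-tolerant cells its calls were lost when 1 library was left out (adjusted p up to 0.281 without GR3 vehicle replicate 1, 0.312 without gefitinib-tolerant gefitinib replicate 2 and 0.192 without WZ4002-tolerant WZ4002 replicate 1). AHRR, a repressor of the aryl hydrocarbon receptor, was called higher in all 6, by 0.63 to 1.70, and the call in GR3 cells was lost without GR3 vehicle replicate 1 (adjusted p = 0.285). In the annotation used, 0 genes overlap TERT.

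**Figure D4:**
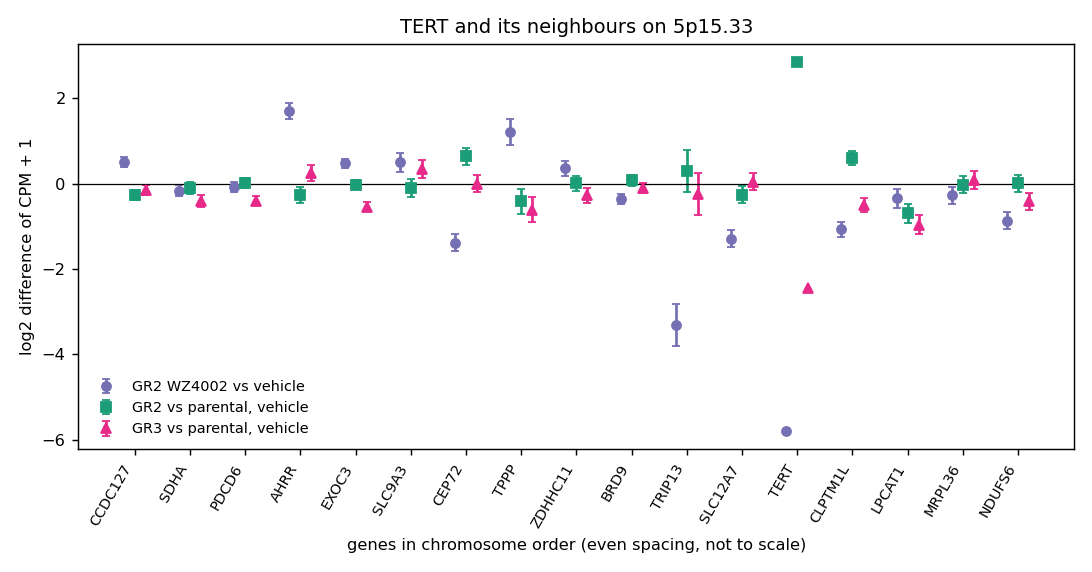
Log2 differences of CPM + 1 for TERT and 16 neighbouring genes in chromosome order, evenly spaced, for GR2 cells under WZ4002 against vehicle, and for GR2 and GR3 against parental cells in vehicle; bars are standard errors, and TERT has none because it was not tested. TERT stands at -5.79 under WZ4002, while CLPTM1L beside it stands at -1.07.

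Over the 22 libraries the genes most like TERT by Pearson r of log2(CPM + 1), among 14157 genes with a mean of at least 1 CPM, were NOX5 (0.956), BTBD19 (0.954), PDE2A (0.953), KLF2 (0.944), STX1A (0.937), ERN1 (0.934), BCAN-AS2 (0.931) and FOXK1 (0.927). The middle 95% of genes lay between -0.764 and 0.773, and 24 genes were above 0.9. The libraries fall into vehicle and inhibitor groups of shared populations, so r describes these 22 libraries only. PDE2A, a cyclic nucleotide phosphodiesterase, averaged 3.94 CPM under WZ4002 and 142 CPM in vehicle in GR2 cells, and 1.80 CPM under WZ4002 and 14.3 CPM in vehicle in parental cells. KLF2, a zinc-finger factor and a member of the list of TERT promoter factors, had 1.06 and 1.01 CPM under WZ4002 against 9.40 and 10.3 CPM in vehicle in GR2 cells, and 2.24 CPM in each parental vehicle library. The lowest r belonged to NSF (-0.914), DAB2IP (-0.911), MOB3B (-0.910) and ALPP (-0.907). ALPP, placental alkaline phosphatase, averaged 715 CPM under WZ4002 and 2.44 CPM in vehicle in GR2 cells, and its near-identical copy ALPG may share its reads. Without both GR2 vehicle libraries only BCAN-AS2 stayed among the 8 highest, and IL1RL1, the interleukin-33 receptor, came first with 0.913.

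**Figure D5:**
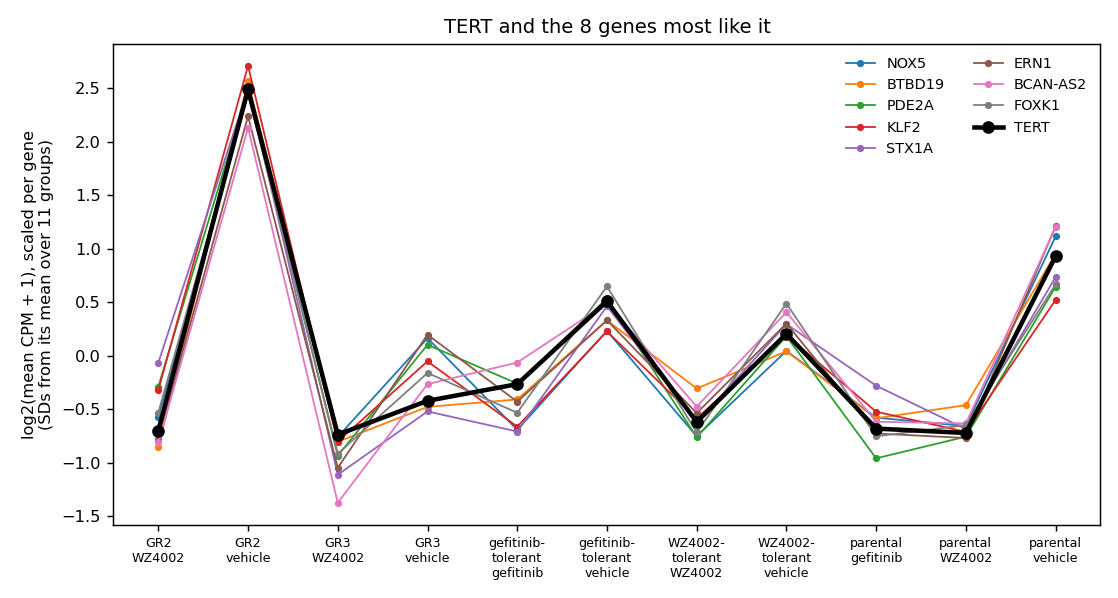
Log2 of mean CPM + 1 in 11 groups, scaled per gene to SDs from its mean, for TERT (black) and the 8 genes most like it over 22 libraries, with inhibitor left of vehicle within each population. All 9 peak in vehicle-treated GR2 cells.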

How the data were processed

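Polyadenylated RNA from 22 libraries was prepared with a directional kit, per the labels' protocols. The submitters' processing notes name STAR, HTSeq and hg19; whether HTSeq used the strand is not given in the sources used here. The deposited values are CPM with 2 decimals for 17165 genes, of which 16779 matched a symbol, and the table held 0 values equal to 0. A gene with no read in 1 or more libraries was thus not listed, and TERT had at least 1 read in every library. In each library at least 99.994% of values were whole multiples of a single step within the rounding of 0.005 CPM (23.6 to 49.6% by chance), which gave reads and depth. Genes with CPM of at least 1 in at least 2 libraries (15485, with 1680 left out) were fitted as log2(CPM + 1) with 11 group means in R 4.3.3 with limma 3.58.1 (variance trend, 11 residual degrees of freedom, 4.8 prior ones in the median). The fit was tested on simulated data with the same spread in every group, which does not cover pairs that differ in spread as these do.

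Ratios of TERT reads carry 95% intervals for counts. TERT and the 12 gene lists were chosen with earlier results of these data known. Genes named were TERT, telomerase assembly and shelterin genes, MYC, ETS1, ETV5, CLPTM1L and DUSP6, up to 4 genes of each other list by adjusted p, and the 8 genes with the highest and 4 with the lowest r. GABPB1, ELF3, AHRR, MYCL, MXD4, MXD1, ETV1, PINX1, FEN1, BLM and IL1RL1 were picked among list members or rankings after their values were seen. GABPA and ETV4 were also in the plan of genes to name. GABPA was described only after its values were seen, and ETV4 is not described. Coordinates of promoters are GRCh38.p14, and no hg19 coordinates were used. Alternatives are described in the closing section. 0 value columns were left unused.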

Additional observations from a re-analysis of the deposited data

Results flagged for a closer look

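ETS1 moved up under WZ4002 in parental cells and down in GR3 and WZ4002-tolerant cells, in every library pairing of these populations. Its log2 difference was 0.79 in parental cells (42.2 and 22.5 CPM under WZ4002, 19.2 and 15.8 CPM in vehicle), against -0.89 in GR3 cells (45.7 and 31.5 CPM under WZ4002, 72.4 and 70.4 CPM in vehicle) and -0.47 in WZ4002-tolerant cells (37.6 and 55.0 CPM under WZ4002, 57.7 and 69.9 CPM in vehicle). In GR2 cells the libraries overlapped, with 56.2 and 68.3 CPM under WZ4002 and 69.5 and 61.5 CPM in vehicle. The difference between the populations was not tested.

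GABPA, the DNA-binding subunit of GABP, had small log2 differences of opposite sign under WZ4002. The difference was 0.34 in parental cells (15.9 and 16.8 CPM under WZ4002, 12.1 and 13.3 CPM in vehicle). In GR2 cells it was -0.14 (14.2 and 14.3 CPM under WZ4002, 17.1 and 14.7 CPM in vehicle). The call in parental cells was lost when single libraries were left out. The difference between the populations was not tested either.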

How the results depend on the processing

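The direction of every TERT difference was the same under all alternatives run, but its size depends on the scale, because TERT is below 1 CPM in most inhibitor libraries. With a pseudocount of 0.1, the ratio of mean CPM and limma-voom on recovered reads (added after seeing the data), the log2 difference of TERT was -5.28, -6.20 and -6.07 in parental cells under gefitinib, -5.69, -7.35 and -6.99 in parental cells under WZ4002, -8.39, -9.61 and -9.29 in GR2, -2.32, -4.39 and -3.92 in GR3, -1.96, -2.19 and -2.10 in gefitinib-tolerant and -3.19, -3.63 and -3.92 in WZ4002-tolerant cells. In vehicle against parental cells it was 2.98, 2.99 and 2.99 in GR2 and -3.58, -3.81 and -3.78 in GR3. With 1 library left out it ran from -3.00 to -2.85, -3.02 to -2.98, -5.80 to -5.78, -0.61 to -0.54, -1.79 to -0.88 and -1.91 to -0.94 in the same order of inhibitor comparisons, and from 2.82 to 2.84 (GR2), -2.48 to -2.42 (GR3), -1.29 to -0.38 (gefitinib-tolerant) and -1.88 to -0.91 (WZ4002-tolerant) in vehicle.

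The number of genes called with 1 library left out was 4525 to 5898 (7017 with all) and 4840 to 6409 (7348) in parental cells under gefitinib and WZ4002, 6596 to 7255 (8618) in GR2, 1729 to 3688 (3406) in GR3, 976 to 4233 (4446) in gefitinib-tolerant and 1401 to 4184 (5049) in WZ4002-tolerant cells. In vehicle against parental cells it was 769 to 1404 (2591) in GR2, 1827 to 3168 (3228) in GR3, 1203 to 2086 (2947) in gefitinib-tolerant and 1300 to 1677 (2856) in WZ4002-tolerant cells, where the lone library is assumed to vary like the other groups. With only the libraries compared in the fit, 693 genes were called in GR3 under WZ4002, 4585 in GR2 and 1046 in GR3 against parental cells. The causes were not tested. Of the 8 genes most like TERT 3 stayed with a pseudocount of 0.1 and 1 without both GR2 vehicle libraries (added after seeing the data), and of the 4 least like it 1 stayed with each of these and with 11 group means.

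Same-numbered libraries shared only a number: their deviations correlated over 0.1 in 20 of 55 pairs of groups (-0.464 to 0.633). With the replicate block 7277 genes were called in parental cells under gefitinib and 7575 under WZ4002 (7624 with crossed numbers), and the TERT difference in GR2 cells was -5.79. The planned test with edgeR was not run.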
